A study of Mus musculus with 12 samples.

Results

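G12D/E2-KO bone marrow, in which hematopoietic cells carried an oncogenic NRas allele and lacked Ezh2, was compared with WT bone marrow. The raw UMIs (unique molecular identifiers, each marking 1 captured RNA molecule) of all cells of a library were summed, and the 3 G12D/E2-KO libraries were set against the 3 WT libraries, matched on time point. These 6 libraries were chosen by genotype from the 12 of the series and held 17011 of its 32701 distinct cells. The series profiled c-Kit+ hematopoietic stem and progenitor cells (HSPCs) by droplet single-cell RNA sequencing from the 3′ ends of transcripts. WT mice did not carry the Mx1-Cre transgene, whereas G12D/E2-KO mice carried Mx1-Cre, 1 NRas G12D allele (NRas G12D+/-) and 2 floxed Ezh2 alleles (Ezh2 f/f), all on a C57BL/6 background. Every mouse, WT included, received 5 injections of pIpC, a double-stranded RNA mimic that induces interferon and thereby the Mx1 promoter. T1, T2 and T3 denote 2 weeks, 2 months and 4 months between pIpC and sampling, and the mice were age-matched. The labels give 8 to 12 weeks as the age at injection, whereas the study's text gives a younger age. Mx1-Cre recombines genes in blood cells and also in other interferon-responsive cells, and the presence of Cre differed between the groups together with the mutations. There was 1 library per genotype and time point, and the number of mice behind each was not given in the sources used here, so the 3 time points served as the replicates of a genotype and the error below holds any change of the genotype difference over time as well as the sampling of mice.

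NRAS is a small GTPase that passes growth factor signals to the MAPK cascade, and the G12D form stays in its active state. EZH2 is the catalytic subunit of Polycomb repressive complex 2 (PRC2), which methylates histone H3 at lysine 27 and keeps developmental genes silent. In bone marrow, stem cells and multipotent progenitors (HSC/MPP) give rise to granulocyte-monocyte progenitors (GMP), which make granulocytes (GN) and monocytes (ProMo), and to megakaryocyte-erythroid progenitors (MEP), which make megakaryocytes (Meg) and, through erythroid progenitors (EryP), red cells. Combined activation of RAS signaling and loss of PRC2 occurs in myeloid neoplasms with bone marrow fibrosis.

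The 3 WT libraries held 2350, 2844 and 2389 cells in time order, with 16831282, 23646292 and 19523265 UMIs. There were 3044, 3767 and 2617 cells with 22279655, 18565449 and 15434265 UMIs in the G12D/E2-KO libraries. Kit, the receptor used for magnetic enrichment of the cells, was read in all 6 libraries, at 49.1, 48.2 and 58.5 UMIs per 1000000 UMIs of the library (CPM) in WT and 45.1, 80.8 and 79.0 CPM in G12D/E2-KO, and its difference did not pass the test (log2 change 0.31, SE 0.15, adjusted p = 0.217). The enriched cells nevertheless included late granulocytes and erythroid cells in every library. Of the 3044 cells of the G12D/E2-KO T1 library, 2896 (95.1%) were also deposited in the library labeled G12D at T1, and were counted here only in G12D/E2-KO. Ezh2 in this library, given next, was as low as in the other G12D/E2-KO libraries. At T3 alone the groups differed in sex-linked transcripts: Xist, expressed from the inactive X chromosome of females, stood at 1296 CPM in WT and 0.130 CPM in G12D/E2-KO, whereas the Y-linked Ddx3y stood at 0.615 and 59.5 CPM. The libraries at T1 and T2 had the male pattern in both groups, so at T3 sex and genotype cannot be told apart.

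The targeted gene was checked first. Ezh2 (chr6:47530139-47595341, mm10) was read at 133, 103 and 103 CPM in WT and 20.7, 25.3 and 22.4 CPM in G12D/E2-KO, each in the order T1, T2, T3 used from here on. All 3 G12D/E2-KO libraries lay below all 3 WT libraries, and Ezh2 fell (log2 change -2.36, SE 0.17, adjusted p = 0.000115). It fell in 9 of the 9 cell classes tested, by 1.37 to 2.32 on the log2 scale. Reads at the 3′ end do not show whether the floxed exons were removed, and the point mutation in Nras is not visible in these tables. Nras transcript levels were 77.5, 64.9 and 66.8 CPM in WT and 68.1, 59.6 and 76.9 CPM in G12D/E2-KO, which overlapped between the groups (log2 change -0.09, SE 0.12, adjusted p = 0.672).

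Over all cells, 731 of 12848 genes tested (5.69%) differed between G12D/E2-KO and WT in edgeR's quasi-likelihood test with Benjamini-Hochberg adjustment at 0.05, and this test is the source of every adjusted p given for a gene. Of these, 479 genes (3.73%) were higher and 252 (1.96%) lower in G12D/E2-KO. The counts of genes that rose or fell in the lists below are to be read against these shares. The fit used all 12 libraries of the series for its error, and a fit on the 6 libraries of the 2 genotypes alone called 379 genes, 298 of them among the 731. With 1 library left out the number ranged from 91 (WT T3) to 1368 (G12D/E2-KO T3). In such sums, fewer cells of a type and less RNA per cell cannot be told apart. Among the 731 genes, 527 (4.1% of those tested) changed the same way at all 3 time points, with a log2 difference of at least 0.5 each time. Of these, 372 (2.9%) were higher and 155 (1.21%) lower. The 3 G12D/E2-KO libraries did not overlap the 3 WT libraries for 520 of the 527 genes (29.8% of all genes tested), which the choice of these genes largely fixes. The higher genes were mostly of low expression, with a median of 2.24 CPM in WT and 6.56 CPM in G12D/E2-KO. The lower genes had medians of 18.9 and 10.3 CPM.

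The lineages of these genes were read from WT cells alone. Each gene was assigned to the cell class in which WT expressed it highest if that level was at least 2 times the level over all WT cells. Only classes with at least 20 cells in every WT library were compared, which left out macrophages, dendritic cells and B lymphoid cells. By this measure, 12.6% of the genes higher in G12D/E2-KO at every time point were assigned to no class, against 51.0% of all genes tested. For the lower genes this was 30.3%. Shares of single classes are therefore lifted against those of all genes tested. The higher genes also had a WT median of 2.24 CPM, against 12.0 CPM for all genes tested. At such levels the highest class can rest on few UMIs, as for Dsp, assigned to Meg at 1.29 CPM. The shares were not matched for expression. HSC/MPP held 82 of the 372 genes (against 12.0% of all genes tested), Meg held 64 (17.2% against 9.64%), GMP and early granulocytes 57 (15.3% against 3.31%), and monocytes 43 (11.6% against 2.68%). Genes lower at every time point belonged to the red cell side. MEP, early erythroid and late erythroid cells together held 90 of the 155 lower genes (58.1%), against 19 of the 372 higher genes (5.11%) and 10.4% of all genes tested. None of the lower genes was assigned to GMP or to monocytes.

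**Figure D1:**
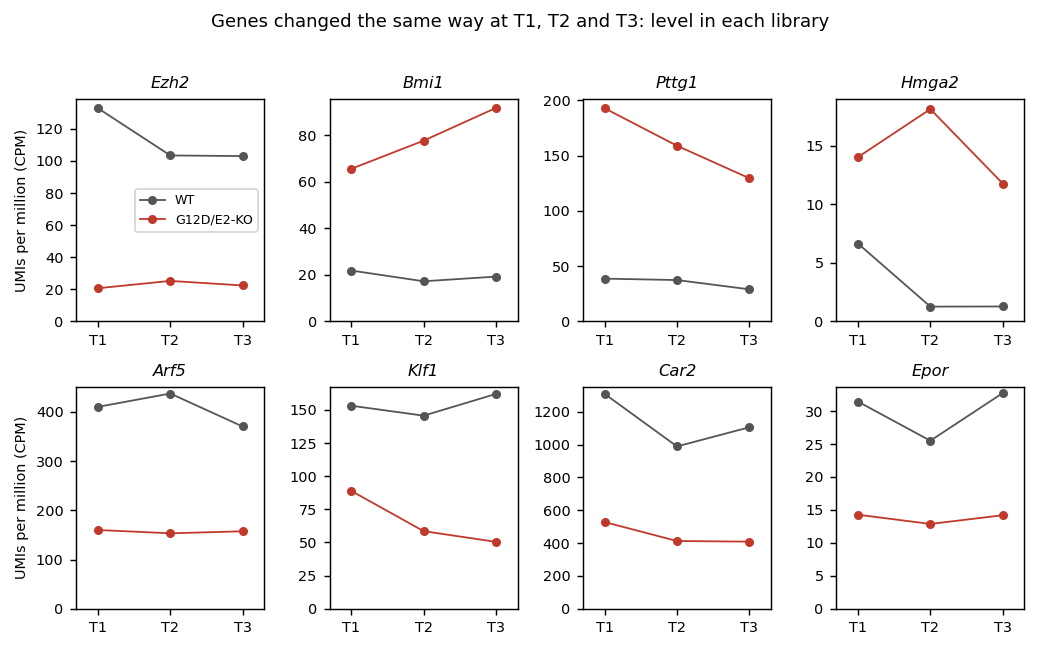
CPM (linear axes from 0) of 8 genes at T1, T2 and T3, with 1 point per library, WT in grey and G12D/E2-KO in red, and lines joining the time points of a genotype. In every panel the 3 red points lie on the same side of the 3 grey points, for example Bmi1 at 65.5 to 91.7 CPM against 17.3 to 21.9 CPM.

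Polycomb genes and genes known as Polycomb targets changed as follows. Of 11 PRC2 genes, Ezh2 fell and Jarid2, an accessory subunit that helps bring PRC2 to DNA, rose (log2 change 0.59, SE 0.13, adjusted p = 0.0294). Over all genes tested 3.73% rose and 1.96% fell, so counts of 1 in such lists are near those shares. Of 20 PRC1 genes, 1 rose and none fell. This was Bmi1, a PRC1 subunit required for stem cell self-renewal, at 21.9, 17.3 and 19.3 CPM in WT and 65.5, 77.6 and 91.7 CPM in G12D/E2-KO. The lowest G12D/E2-KO value was above the highest WT value by nearly 3-fold, and Bmi1 rose in 9 of 9 cell classes, by 1.30 to 3.22 (log2 change 1.94, SE 0.12, adjusted p = 5.49e-05 over all cells). Bmi1 stood at 6.11 CPM in WT late granulocytes and 58.0 CPM in their G12D/E2-KO counterparts.

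Of 11 tested genes of a list of fetal genes and tumor suppressors silenced by Polycomb, 4 rose and none fell, with a median log2 change of 0.49 against 0.01 over all genes tested. Hmga2, a chromatin protein of fetal stem cells, was read at 6.65, 1.27 and 1.28 CPM in WT and 14.0, 18.2 and 11.8 CPM in G12D/E2-KO. The groups did not overlap (log2 change 2.52, SE 0.44, adjusted p = 0.0167). Lin28b, an RNA-binding protein of fetal blood formation, had no UMI in any WT library and 1.53, 0.808 and 1.62 CPM in G12D/E2-KO (adjusted p = 0.0125). Cdkn2a, which encodes the cell cycle inhibitors p16 and p19, was read at 0.119, 0.0846 and 0 CPM in WT and 6.87, 3.66 and 0.389 CPM in G12D/E2-KO. It was higher in G12D/E2-KO than in WT (adjusted p = 0.0396), and its G12D/E2-KO level was lowest at T3. Igf2bp3, a fetal RNA-binding protein, rose less (log2 change 0.65, SE 0.17, adjusted p = 0.0465), and it alone of the 4 did not pass with G12D/E2-KO T1 left out (adjusted p = 0.108).

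Bmi1 and the erythropoietin receptor gene Epor are shown as examples of a gene higher and a gene lower at every time point, each by the 250 bases before its annotated start (RefSeq, GRCm38.p6). For Bmi1 (chr2:18676768-18677017, plus strand) capitals mark the 21 CpG dinucleotides, whose frequency was 0.715 of that expected from base composition. For Epor (chr9:21963577-21963826, minus strand) capitals mark AGATAA, 1 form of the motif of GATA factors, and the motif of Krüppel-like factors (CCNCNCCC). Both were searched on either strand, including overlapping matches.
Bmi1: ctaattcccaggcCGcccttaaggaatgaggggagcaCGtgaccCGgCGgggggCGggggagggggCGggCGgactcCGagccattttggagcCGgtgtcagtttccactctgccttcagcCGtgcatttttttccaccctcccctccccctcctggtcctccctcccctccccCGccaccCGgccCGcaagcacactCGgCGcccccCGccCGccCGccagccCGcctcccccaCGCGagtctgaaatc
Epor: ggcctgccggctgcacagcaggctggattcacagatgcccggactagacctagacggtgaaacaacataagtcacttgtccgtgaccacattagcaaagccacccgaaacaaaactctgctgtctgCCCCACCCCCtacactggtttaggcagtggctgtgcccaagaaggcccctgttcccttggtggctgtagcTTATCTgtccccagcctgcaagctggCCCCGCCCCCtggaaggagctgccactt
The Epor stretch held 1 AGATAA match, on the opposite strand, and 4 CCNCNCCC matches. In the same stretches of Klf1, Gata1 and Ermap, which also fell, AGATAA was not found, and CCNCNCCC was found 3 times in Gata1 and not in Klf1 or Ermap. Other forms of the GATA motif were not counted. The stretches of Klf1 and Ermap hold TTATCA, which reads TGATAA on the opposite strand. Over 300-base windows reaching 50 bases past the start, AGATAA occurred in 12.0% of the 117 lower genes with a RefSeq promoter, 7.66% of 274 higher genes and 6.74% of all 9593 genes tested that had such a promoter, and CCNCNCCC in 63.2%, 79.2% and 67.8%. The median CpG frequency was 0.639 of that expected in the lower genes, 0.747 in the higher genes and 0.765 in all. These are matches of letters, and binding was not measured.

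Of 30 erythroid genes tested, 8 fell and none rose, 27 had a negative change, and the median log2 change was -0.58 against 0.01 over all genes tested. The median difference was -0.38 at T1, -0.82 at T2 and -1.09 at T3. All 8 genes fell the same way at every time point. Klf1, a transcription factor that switches on globin and other erythroid genes, was read at 153, 146 and 162 CPM in WT and 88.9, 58.5 and 50.5 CPM in G12D/E2-KO. Each G12D/E2-KO library lay below every WT library (log2 change -1.32, SE 0.31, adjusted p = 0.0440). Car2, the carbonic anhydrase of red cells, was read at 1308, 988 and 1105 CPM in WT and 528, 413 and 409 CPM in G12D/E2-KO, again without overlap (log2 change -1.40, SE 0.30, adjusted p = 0.0324). Epor, through which erythropoietin keeps red cell precursors alive, was read at 31.4, 25.5 and 32.7 CPM in WT and 14.3, 12.9 and 14.2 CPM in G12D/E2-KO (log2 change -1.18, SE 0.27, adjusted p = 0.0355). Its 3 G12D/E2-KO values were close to each other and all below WT. Gata1, the main erythroid and megakaryocyte transcription factor, fell by 1.06 on the log2 scale (adjusted p = 0.0440), and Ermap, Slc25a38, Blvrb and Cldn13 also fell. Klf1, Car2, Epor and Cldn13 were among the genes that passed with G12D/E2-KO T1 left out as well. Over 20 alternative fits Klf1 passed in 7, Cldn13 in 9, Epor in 13 and Car2 in 14. Of 9 heme synthesis enzymes none passed in edgeR, with a median log2 change of -0.61. At an unadjusted p under 0.05, 6 of them were lower and 1 higher, and DESeq2 called 3 lower. None of 9 globin genes passed in either tool or at an unadjusted p under 0.05 (median -0.50). At T1 the globin sum was higher in G12D/E2-KO (25118 against 19734 CPM) and that of the heme enzymes was 683 against 700.0 CPM, whereas both sums were lower than WT at T2 and T3.

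Other lower genes were found mostly in the same cells. Of the 12 genes that fell furthest with at least 10 CPM, 11 were assigned to MEP or erythroid cells of WT. Ezh2 was also highest in early erythroid cells of WT, at less than 2 times its level over all cells. Among them were Pklr, the pyruvate kinase of red cells (log2 change -1.41, SE 0.33, adjusted p = 0.0434), Sphk1, a sphingosine kinase (log2 change -1.51, SE 0.30, adjusted p = 0.0239), Gdf3, a ligand of the TGF-β family (log2 change -2.10, SE 0.38, adjusted p = 0.0177), and Atp1b2, a subunit of the sodium pump (log2 change -1.52, SE 0.28, adjusted p = 0.0197). Sh2d4a (-2.16), Prss50 (-1.86), Emc9 (-1.72), Prelid2 (-1.69), Fam132a (-1.54) and Sdsl (-1.45) made up the rest together with Arf5. Arf5, a small GTPase of vesicle traffic, was read at 409.9, 437 and 370.1 CPM in WT and 159.9, 153 and 157 CPM in G12D/E2-KO. It halved or more at each time point (log2 change -1.42, SE 0.13, adjusted p = 0.000321), and it was lower in 9 of 9 classes and called in 8. Arf5 lies on chromosome 6 at chr6:28423560-28426602, within 20 Mb of Ezh2. With G12D/E2-KO T1 left out, Fam132a, Sphk1 and Pklr no longer passed (adjusted p = 0.0744, 0.0525 and 0.0628), and the other 9 genes did.

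Macrophage genes also fell. Of 12 tested, 4 fell and none rose, namely the complement genes C1qb (-2.29) and C1qc (-2.39), the mannose receptor Mrc1 (-2.14) and the heme oxygenase Hmox1 (-1.33). Among the 9 classes compared within WT, all 4 were highest in late erythroid cells. Macrophages held too few cells to be among these classes, and all 4 genes were leading genes of the WT macrophage cluster. Genes of macrophages can therefore count as erythroid in the tallies above. The cells assigned to macrophages numbered 19, 5 and 6 in WT and 1, 0 and 0 in G12D/E2-KO. Of 26 B lymphoid genes all 26 had a negative change, yet only Ms4a1, which encodes CD20, fell (log2 change -3.37, SE 0.58, adjusted p = 0.0128). The summed level of the whole list of 30 genes, tested or not, was 1478, 738 and 171 CPM in WT and 306, 603 and 90.9 CPM in G12D/E2-KO in time order. It was lower in G12D/E2-KO at each time point, and within WT it was lower at each later time. B lymphoid cells made up 9.74%, 5.13% and 0.670% of WT cells and 1.48%, 3.74% and 0% of G12D/E2-KO cells, also lower at each time point (log2 change -1.78, SE 1.003, adjusted p = 0.181).

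**Figure D2:**
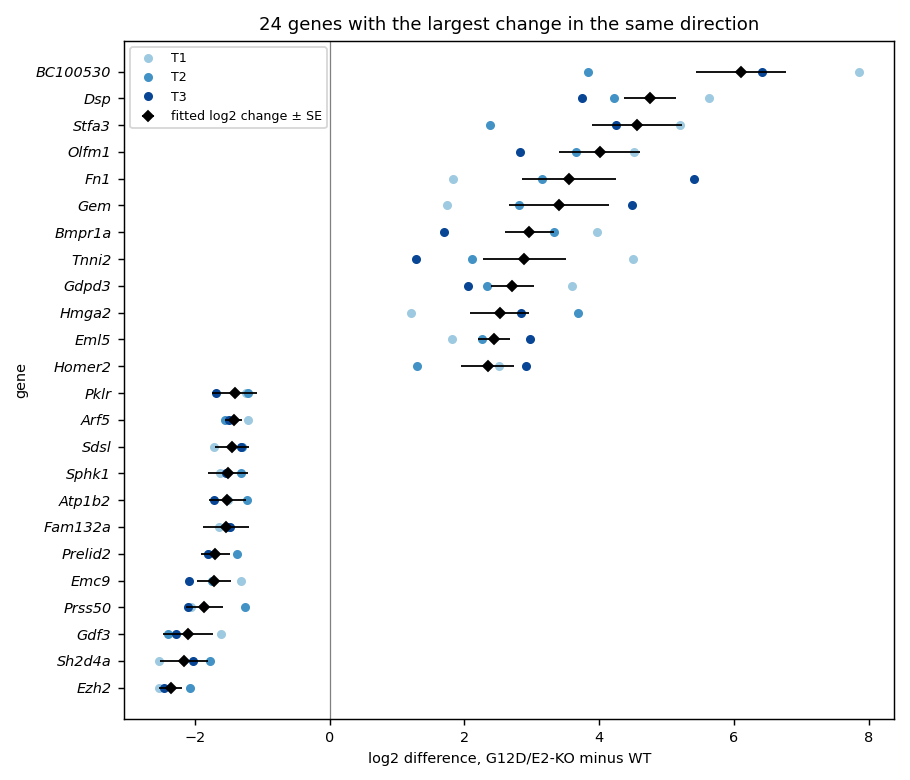
Log2 difference between G12D/E2-KO and WT for the 12 genes that rose furthest and the 12 that fell furthest the same way at all 3 time points, with dots for T1, T2 and T3 in deepening blue and diamonds for the fitted change with its standard error. The dots of Ezh2 and Arf5 lie close together, whereas those of BC100530, Fn1, Gem and Tnni2 spread over more than 2 log2 units.

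The 12 genes that rose furthest with at least 10 CPM are given next. Fn1, the matrix protein fibronectin, was read at 1.37, 0.677 and 0.359 CPM in WT and 4.67, 7.06 and 23.5 CPM in G12D/E2-KO. The groups did not overlap, and the difference was largest at T3 (log2 change 3.55, SE 0.70, adjusted p = 0.0292). Dsp, which encodes the desmosome protein desmoplakin, was read at 0.238, 0.761 and 0.359 CPM in WT and 15.6, 16.5 and 7.32 CPM in G12D/E2-KO (log2 change 4.75, SE 0.38, adjusted p = 0.000279). Bmpr1a, a receptor for bone morphogenetic proteins, was read at 0.832, 1.27 and 3.89 CPM in WT and 13.3, 14.2 and 15.4 CPM in G12D/E2-KO (log2 change 2.97, SE 0.36, adjusted p = 0.00272). Each of its G12D/E2-KO values was above every WT value. Olfm1, a secreted glycoprotein, Tnni2, a troponin of fast muscle, and Homer2, a scaffold protein, rose by 4.01, 2.89 and 2.35 on the log2 scale. Gdpd3, a lipid phosphodiesterase, rose by 2.71, and Eml5, a microtubule-associated protein, by 2.43. Gem, a small GTPase that limits calcium channels and cytoskeletal tension, was read at 1.19, 0.930 and 1.38 CPM in WT and 3.82, 7.38 and 39.8 CPM in G12D/E2-KO, highest at T3 (log2 change 3.40, SE 0.74, adjusted p = 0.0406). BC100530 and Stfa3, which encode stefin A cysteine protease inhibitors, rose by 6.11 and 4.57 on the log2 scale, but they belong to a family of near-identical copies among which reads can be split, so their values are uncertain. All 12 passed the test without the G12D/E2-KO T1 library as well. Least stable among them were Tnni2 and Gem, which passed in 9 and 10 of 20 alternative fits. Over all 69 named genes that passed, 52 did so without that library, but 18 without WT T1, 16 without WT T3 and 18 without G12D/E2-KO T2.

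Pttg1, or securin, holds sister chromatids together until anaphase. It was read at 38.7, 37.5 and 29.1 CPM in WT and 193, 159 and 129.6 CPM in G12D/E2-KO, without overlap between the groups (log2 change 2.14, SE 0.20, adjusted p = 0.000371). It rose in 9 of 9 classes, by 1.25 to 3.96. Of the other 30 G2 and mitosis genes, none rose and Hmmr fell (log2 change -0.63, SE 0.16, adjusted p = 0.0483), and the median of the list was -0.21. That 1 gene fell is near the 1.96% of all genes tested. Within HSC/MPP, GMP and early granulocytes, ProMo and MEP the median of the list was positive, from 0.17 to 0.24, and Pttg1 was the only member to pass in any class. Hmmr was higher in 5 and lower in 4 of 9 classes and passed in none. Of 28 S phase genes, Tyms, Chaf1b and Prim1 fell and none rose, with a median of -0.16. Within classes the median ran from -0.05 in ProMo to 0.23 in late granulocytes. In late granulocytes Mcm4, Pcna and Uhrf1 passed as higher, whereas Tyms passed as lower in ProMo and Ccne1 in early erythroid cells.

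Output of the RAS-ERK pathway was followed through 23 genes that ERK signaling induces or that feed back on it. Of these, 3 rose, none fell, and 22 had a positive change, with a median of 0.38. Ccnd1, the cyclin that carries growth signals into the cell cycle, was read at 6.71, 5.20 and 7.53 CPM in WT and 14.0, 17.0 and 27.2 CPM in G12D/E2-KO. All G12D/E2-KO values were above WT, the highest at T3 (log2 change 1.49, SE 0.21, adjusted p = 0.00439). Spry2, a feedback inhibitor of RAS signaling (log2 change 1.03, SE 0.20, adjusted p = 0.0208), and the ETS factor Etv5 (log2 change 0.90, SE 0.23, adjusted p = 0.0451) also rose, and Etv5 did not pass without the G12D/E2-KO T1 library (adjusted p = 0.0723). Of 15 genes that the study names, Hmga2, Gem, Pdgfrb and Fabp5 rose and none fell. Fabp5 did not pass without the G12D/E2-KO T1 library (adjusted p = 0.0572). The study chose genes from these libraries or from other samples of the same genotypes, so the changes of these genes are not independent evidence of their direction. Pdgfrb, a growth factor receptor of stromal cells, was read at 4.81, 3.59 and 3.79 CPM in WT and 6.69, 9.26 and 16.0 CPM in G12D/E2-KO (log2 change 1.28, SE 0.23, adjusted p = 0.0156).

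Myeloid lists held few genes that passed. Of 17 genes of primary granules and GMP, 16 had a positive change, with a median of 0.57, and none fell. Of 19 monocyte genes, 18 had a positive change with a median of 0.69, and S100a4 (1.56), Fn1 and the interferon regulatory factor Irf5 (1.18) rose. Within the ProMo class 11 of the 19 had a positive and 8 a negative change (median 0.02), none passed as higher, and Irf8 and Ly86 passed as lower (2.3% of all genes tested there passed). Of 33 megakaryocyte and platelet genes, 28 had a positive change with a median of 0.49. Serpine2, a protease inhibitor released by platelets (log2 change 1.33, SE 0.21, adjusted p = 0.00715), Ptgs1, the cyclooxygenase of platelets (log2 change 0.84, SE 0.15, adjusted p = 0.0133), and Plek, a kinase substrate of platelets (log2 change 0.75, SE 0.19, adjusted p = 0.0457), rose. Of 22 stem and multipotent progenitor genes, 1 rose, Hoxa9 (log2 change 0.65, SE 0.17, adjusted p = 0.0496), and none fell. This count is near the 3.73% of all genes tested. With G12D/E2-KO T1 left out, Irf5 did not pass (adjusted p = 0.100), and S100a4, Serpine2, Ptgs1, Plek and Hoxa9 did. Over 20 alternative fits Plek passed in 8, Hoxa9 in 9, S100a4 in 13, Ptgs1 in 17 and Serpine2 in 19.

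**Figure D3:**
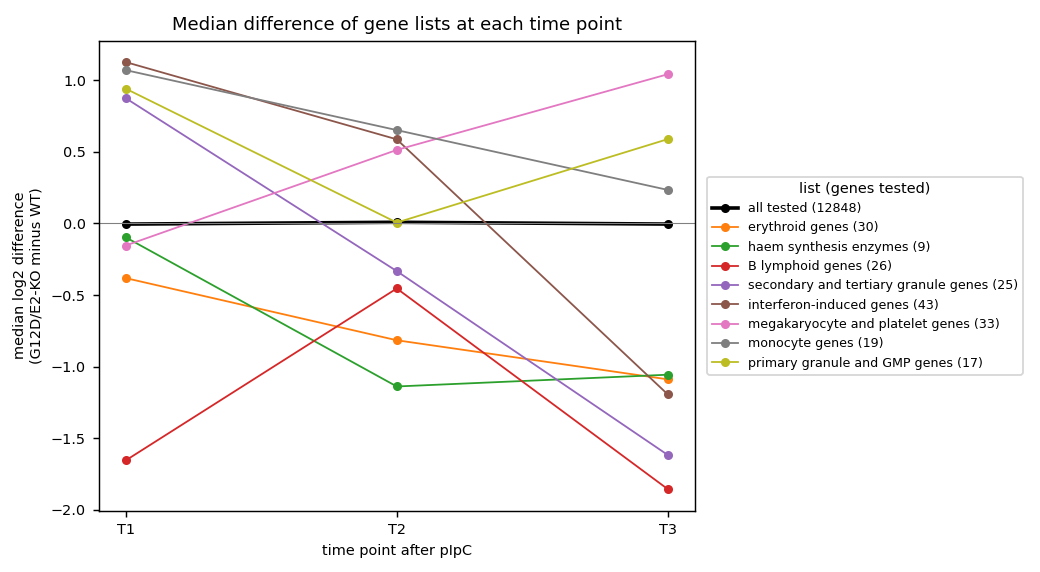
Median log2 difference between G12D/E2-KO and WT at T1, T2 and T3 for 8 gene lists and for all genes tested. The erythroid median moved from -0.38 to -1.09 and the megakaryocyte and platelet median from -0.15 to 1.04, while the median of all genes stayed at 0.01 or closer to 0.

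WT cells were clustered, and their clusters were named by markers. Each G12D/E2-KO cell took the class of the WT cell nearest to it in expression, and was not clustered or named by its own markers. The make-up of the marrow was then compared. Of 12 class shares tested, 1 differed (8.33%), that of macrophages (log2 change -4.70, SE 1.14, adjusted p = 0.0217), which rests on 31 cells in all. The share of early erythroid cells was 16.9%, 13.6% and 18.2% in WT and 5.68%, 9.24% and 8.75% in G12D/E2-KO in time order. Late erythroid cells made up 6.60%, 11.04% and 8.12% of WT cells and 8.90%, 5.60% and 4.24% of G12D/E2-KO cells, higher than WT at T1 and lower later (log2 change -0.49, SE 0.48, adjusted p = 0.471). The early erythroid share did not overlap between groups, yet it missed the threshold (log2 change -1.09, SE 0.40, adjusted p = 0.0591). The shares of monocytes, of basophils and mast cells, and of macrophages did not overlap either. Monocytes made up 8.26%, 9.49% and 9.25% of WT cells and 10.5%, 14.3% and 15.9% of G12D/E2-KO cells (log2 change 0.58, SE 0.33, adjusted p = 0.181). Basophils and mast cells made up 1.32%, 1.76% and 1.13% of WT cells and 2.10%, 2.42% and 4.28% of G12D/E2-KO cells (log2 change 1.03, SE 0.38, adjusted p = 0.0591). The share of GMP and early granulocytes was 4.98%, 9.21% and 5.61% against 6.50%, 11.3% and 17.9% (adjusted p = 0.171). Cells of clusters matched to dendritic cell markers, which in WT were 22 cells led by H2-Aa, Cd74 and H2-Eb1 and 13 led by Jchain, Gm43291 and Mzb1, made up 0.596%, 0.668% and 0.0837% against 4.402%, 1.14% and 0.535% (adjusted p = 0.0591). No class passed with G12D/E2-KO T1 left out, with adjusted p = 0.138 for early erythroid cells and 0.0664 for macrophages.

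**Figure D4:**
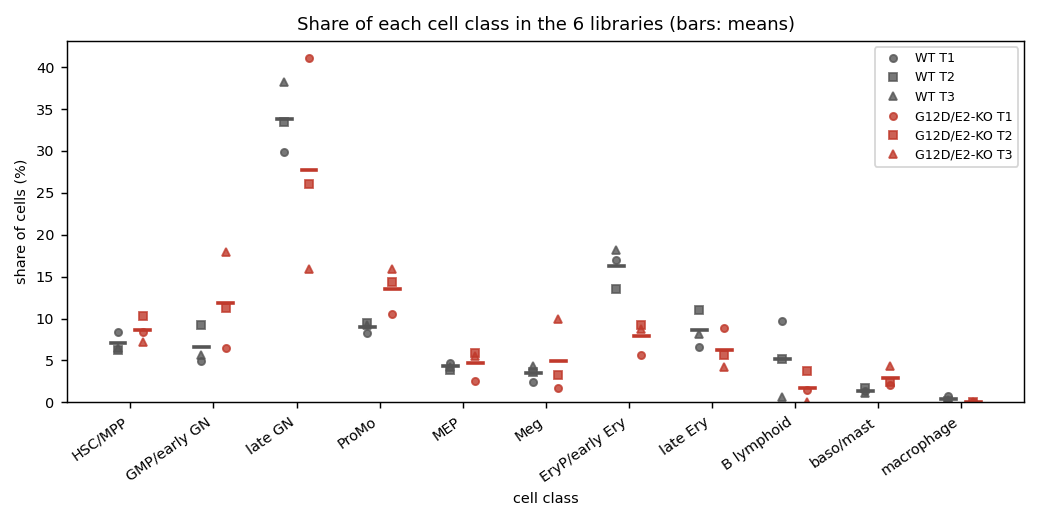
Share of cells (percent, linear axis from 0) of 11 cell classes in each of the 6 libraries, with points for libraries and bars for the mean of each genotype. Early erythroid cells, monocytes (ProMo), basophils and mast cells, and macrophages are each separated between the groups in all libraries. Late granulocytes range from 16.0% to 41.1% within G12D/E2-KO.

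Make-up was counted here as each class's share of UMIs in a G12D/E2-KO library, unnamed clusters included. The amount of RNA per cell enters such shares along with the number of cells. How far this make-up alone would move a gene was computed by weighting its WT level in each class by these shares. For erythroid genes this gave a median log2 difference of -0.68, and -0.60 was observed. For the 155 genes lower at every time point it gave -0.40, where -0.84 was observed, and for the 372 higher genes it gave 0.22, where 0.96 was observed. These genes were chosen by their observed change, which largely fixes that it exceeds the computed one. Over all genes tested the medians were 0.02 computed and 0.05 observed. Cells took their class by expression, so the computed values are not independent of the changes observed. Within classes, the comparison over genes gave 1467 calls in 9 classes, or 4.47% of genes tested in late granulocytes, 3.39% in early erythroid cells, 2.3% in monocytes, 2.21% in GMP and early granulocytes, 2.14% in late erythroid cells, 1.25% in MEP, 0.609% in megakaryocytes, 0.492% in HSC/MPP and 0.431% in basophils and mast cells. Within early erythroid cells, 166 of the 167 higher genes that could be tested had a positive change and 81 passed. Within late granulocytes the counts were 218 of 221 and 94. These classes are parts of the same libraries, and cells took them by expression, so they are no independent test.

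Inside the erythroid classes the erythroid list had a positive median. Cells were placed in classes by expression, and the erythroid markers include Klf1, Car2, Epor, Tfrc and others of this list. Cells low in such genes can be placed elsewhere, so the assignment itself can set medians inside these classes. The log2 change of the 30 erythroid genes had a median of 0.38 in late erythroid cells and 0.15 in early erythroid cells. Aqp1, the water channel of red cells, Tal1, an erythroid transcription factor, and Tfrc, the transferrin receptor, rose in late erythroid cells and none fell. In early erythroid cells Rhag and Sptb, which encode red cell membrane proteins, rose and Car2 fell, from 2695 to 1719 CPM (log2 change -0.58, adjusted p = 0.0143). Klf1 was read at 370 and 288 CPM there (log2 change -0.34, adjusted p = 0.280).

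Late changes were defined by size alone, as a log2 difference of at least 1 at T3 with at least 10 CPM and of less than 0.5 at T1 and T2. This held for 63 of 7722 genes (0.816%), of which 45 (0.583%) were higher and 18 (0.233%) lower in G12D/E2-KO. The number depends on the limits, with 9 genes at an early limit of 0.25 log2 and 19 at 30 CPM or more. By the same limits 73 genes differed at T1 alone, 17 at T2 alone and 24 at T2 and T3. Of the 63 genes, 3 were sex-linked and all 3 of these were higher. With 1 library per group at T3, the G12D/E2-KO T3 library was tested for an excess over what genotype and time added up to across all 12 libraries. Here the lone library is assumed to vary like the others, and the excess covers whatever sets this library apart, sex included. Mitochondrial transcripts made up 5.75% of its UMIs, against 3.49% to 4.62% in the other 5 libraries, and their part in the late differences was not tested. The excess passed for 95 of 12848 genes (0.739%), 27 of them higher (0.21%) and 68 lower (0.529%), and for 14 of the 63 genes. The T3 library lay outside the range of the other 11 libraries for 53 of the 63 genes (28.3% of all genes tested), which follows largely from how they were chosen. The excess passed for 21 genes once the G12D/E2-KO T1 library, which shares cells with another library, was left out.

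Genes higher only at T3 were led by megakaryocyte genes. After the sex-linked genes were set aside, 13 of 42 (31.0%) were highest in WT megakaryocytes, against 9.64% of all genes tested, and none in late granulocytes or erythroid cells. Of the 42 genes, 5 (11.9%) were assigned to no class, against 51.0% of all genes tested, which lifts such shares. Itga2b, the fibrinogen receptor subunit CD41, was read at 10.5, 12.1 and 13.7 CPM in WT and 6.73, 17.3 and 65.1 CPM in G12D/E2-KO. The T3 library was highest and the T2 library also lay above WT, but the excess missed the threshold (log2 1.73, SE 0.37, adjusted p = 0.0683). Gp1bb, a subunit of the platelet receptor for von Willebrand factor, was read at 8.85, 14.0 and 12.4 CPM in WT and 7.18, 10.4 and 46.3 CPM in G12D/E2-KO, and its excess passed (log2 2.43, SE 0.40, adjusted p = 0.0288). Clu, the chaperone clusterin of platelet granules, was read at 3.15, 4.44 and 3.43 CPM in WT and 3.01, 6.25 and 14.9 CPM in G12D/E2-KO (log2 1.68, SE 0.34, adjusted p = 0.0495). The excess of Gp1bb was 2.44, adjusted p = 0.141, and that of Clu 1.36, adjusted p = 0.203, with G12D/E2-KO T1 left out. F13a1, the A chain of clotting factor XIII, which monocytes and platelets carry, was read at 35.6, 44.1 and 36.5 CPM in WT and 43.6, 61.0 and 171 CPM in G12D/E2-KO, and its excess did not pass (adjusted p = 0.249).

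Over the whole megakaryocyte and platelet list, the summed level was 890, 930 and 902 CPM in WT and 826, 1223 and 2020 CPM in G12D/E2-KO, so that it was above all WT libraries at T2 as well as T3. Serpine2 and Ptgs1 of this list were higher from T1 on. In all, 26 of its 33 genes were higher in the T3 library than in the other 11, against 14.9% of all genes tested. The share of cells assigned to megakaryocytes was 2.43%, 3.62% and 4.31% in WT and 1.74%, 3.21% and 9.97% in G12D/E2-KO. Within megakaryocytes 26 of 31 genes of the list had a positive change, with a median log2 change of 0.29 against 0.01 over all 5584 genes tested there, and 1, Gng11, passed (0.609% of all genes tested). Itga2b stood there at 269 CPM in WT and 346 CPM in G12D/E2-KO (log2 change 0.38, adjusted p = 0.634). The list was also positive in other classes, with 15 of 16 genes in ProMo (median 0.47) and 10 of 11 in MEP (median 0.51). In ProMo Serpine2, Ptgs1 and Nrgn passed, where 2.3% of all genes tested did. Serpine2 also passed in late granulocytes and in GMP and early granulocytes, but neither Serpine2 nor Ptgs1 passed in megakaryocytes. Igfbp7, a secreted protein that binds insulin-like growth factors and is highest in megakaryocytes here, was read at 2.20, 2.07 and 1.13 CPM in WT and 3.28, 3.07 and 14.7 CPM in G12D/E2-KO (log2 2.98, SE 0.38, adjusted p = 0.00972). Its excess also passed without the G12D/E2-KO T1 library (3.22, adjusted p = 0.0262). Of the 3 classes in which Igfbp7 was tested over all time points, it passed as higher in ProMo alone.

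**Figure D5:**
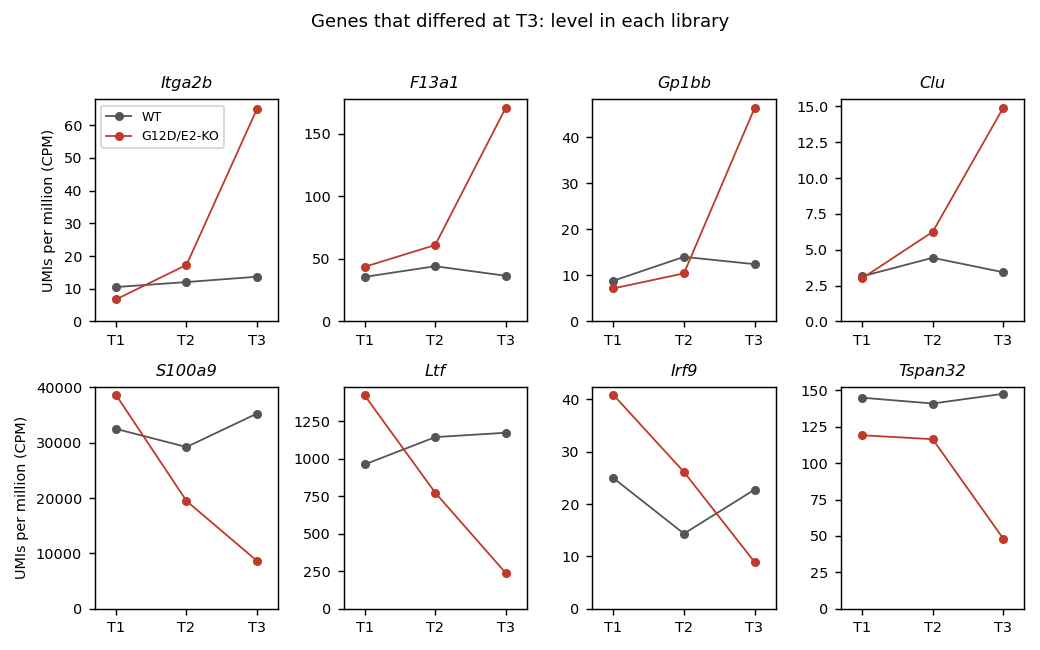
CPM (linear axes from 0) of 8 genes that differed at T3, with 1 point per library, WT in grey and G12D/E2-KO in red, and lines joining the time points of a genotype. Itga2b, F13a1, Gp1bb and Clu are highest in the G12D/E2-KO T3 library, with Itga2b, F13a1 and Clu above WT at T2 as well, while S100a9, Ltf and Irf9 lie above WT at T1 and below it at T3 in G12D/E2-KO.

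Of the 18 genes lower only at T3, 5 were highest in late erythroid cells of WT (27.8%, against 4.81% of all genes tested) and 3 in late granulocytes (16.7% against 4.79%). The excess test, which does not require small differences at T1 and T2, gave another set. Of the 66 genes with a lower excess outside the sex-linked list, 41 (62.1%) were highest in late granulocytes of WT. S100a9, a subunit of the neutrophil protein calprotectin, was read at 32520, 29240 and 35290 CPM in WT and 38670, 19490 and 8637 CPM in G12D/E2-KO. The G12D/E2-KO libraries ran from above WT at T1 to below it at T3 (log2 -2.25, SE 0.32, adjusted p = 0.0210). Ltf, the iron-binding granule protein lactoferrin, was read at 962, 1145 and 1174 CPM in WT and 1423, 774 and 238 CPM in G12D/E2-KO (log2 -2.65, SE 0.40, adjusted p = 0.0272), and the same order held for S100a8, the partner of S100a9, at 38770, 42010 and 48980 CPM in WT and 56390, 34000 and 12240 CPM in G12D/E2-KO (log2 -2.45, SE 0.38, adjusted p = 0.0295). The antimicrobial gene Camp and the neutrophil genes Cybb and Itgb2l also passed. Of the 25 secondary and tertiary granule genes tested, which include these, the stefin genes BC100530, Stfa2 and Stfa2l1 were higher over all 3 time points, with log2 differences of 6.42, 4.75 and 4.03 at T3. Without the G12D/E2-KO T1 library S100a9 (-1.81, adjusted p = 0.0203), Ltf (-2.23, adjusted p = 0.0446) and Itgb2l (-2.12, adjusted p = 0.0335) passed, and S100a8 (-2.09, adjusted p = 0.0766), Camp (-1.24, adjusted p = 0.0835) and Cybb (-1.62, adjusted p = 0.0865) did not.

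The summed level of the whole list of 28 secondary and tertiary granule genes, tested or not, was 114055, 115192 and 133609 CPM in WT and 156531, 85441 and 40011 CPM in G12D/E2-KO. Late granulocytes made up 29.9%, 33.5% and 38.2% of WT cells and 41.1%, 26.0% and 16.0% of G12D/E2-KO cells, in the same order. Within late granulocytes 17 of 24 of these genes had a negative change, with a median of -0.15, and S100a9 passed as lower and BC100530 and Stfa2 as higher (4.47% of all genes tested there passed). Transcripts of these genes were also read in other classes. In megakaryocytes 14 of 14 had a negative change, with a median of -1.69, and in HSC/MPP 16 of 16, with a median of -1.03, whereas in GMP and early granulocytes 12 were positive and 10 negative, with a median of 0.07. The part of free RNA in this was not tested.

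Interferon-induced genes were also low at T3. The summed level of the whole list of 45 genes, tested or not, was 1538, 1237 and 1249 CPM in WT and 4197, 1808 and 1081 CPM in G12D/E2-KO. Across time points 39 of the 43 genes tested had a positive change but none passed in edgeR, with 1 lower at an unadjusted p under 0.05 and 1 lower by DESeq2. The median log2 difference was 1.13 at T1, 0.59 at T2 and -1.19 at T3. At T3, 27 of the 43 genes were lower than in any of the other 11 libraries, against 13.4% of all genes tested. Irf9, a transcription factor of type I interferon signaling, was read at 24.9, 14.3 and 22.7 CPM in WT and 40.8, 26.1 and 8.94 CPM in G12D/E2-KO (log2 -2.71, SE 0.34, adjusted p = 0.00918). Its excess was lower and passed, as did those of Oas2, Oas3 and Ifih1, which sense viral RNA. Without the G12D/E2-KO T1 library Irf9 passed (-2.54, adjusted p = 0.0390).

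Of the genes lower only at T3 that were named by the size of their difference, Tspan32, a tetraspanin of blood cells, was read at 145, 141 and 148 CPM in WT and 119, 117 and 48.2 CPM in G12D/E2-KO. Its T3 value in G12D/E2-KO was far below the other 5 (log2 -1.86, SE 0.25, adjusted p = 0.0119), also without the G12D/E2-KO T1 library (-1.70, adjusted p = 0.0423). Cklf, a chemokine-like factor, was read at 48.9, 47.2 and 46.2 CPM in WT and 53.7, 46.3 and 22.5 CPM in G12D/E2-KO (log2 -1.47, SE 0.22, adjusted p = 0.0201), and its excess without that library was -1.37, adjusted p = 0.0766. The other named genes, Jchain, Slco4a1, Slc7a6 and Tespa1 among those higher and RP23-6I17.1, Dapk2, Brpf3, Rdm1, Pla2g16 and Irgm1 among those lower, did not pass the excess test.

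Position relative to the altered loci was also tallied. Within 20 Mb of Ezh2 on chromosome 6, and leaving Ezh2 out, 16 of 168 genes tested passed (9.52%), against 5.76% of all 12421 genes placed on the annotation, and 15 of the 16 rose. These include genes of the HOXA region, a known Polycomb target, namely Hoxa9 (0.65), Hoxa10 (1.29) and the noncoding Hotairm1 (log2 change 2.70, SE 0.32, adjusted p = 0.00180), and the neuropeptide gene Npy, at 0.0594, 0.0846 and 0 CPM in WT and 1.30, 3.12 and 11.3 CPM in G12D/E2-KO (adjusted p = 0.00419). Arf5 was the gene that fell. Within 20 Mb of Nras on chromosome 3, 19 of 324 genes passed (5.86%).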

How the data were processed

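The authors processed the 10x Genomics 3′ libraries with Cell Ranger on mm10, removed cells with over 10% mitochondrial UMIs and doublets, and deposited a table of raw UMI counts (gene by cell) for each library. No further cell was removed here, except that 2896 cells deposited in 2 libraries were kept in G12D/E2-KO T1 alone. The deposited counts were summed per library and fitted with edgeR 4.0.16 (TMM factors, filterByExpr, robust quasi-likelihood, terms for genotype and time point) over all 12 libraries of 4 genotypes, so that the spread came from 6 residual degrees of freedom. BCV, the variation between libraries, was 0.19. DESeq2 1.42.0 was an alternative. Differences at single time points are TMM-scaled log2 CPM with a prior count of 2. WT cells were clustered with leidenalg 0.10.2 (Leiden), and clusters were named from markers. Cells of the other genotypes took the class of the nearest WT cell. Composition was computed from the UMI shares of the classes, with a pseudocount of 1 CPM.

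The genes named were the 12 that changed most each way at all 3 time points and the 8 that differed most each way only at T3, with at least 10 CPM in the higher group and leaving out clone and family names, and up to 4 called genes each way per list. Genes shown for the excess at T3 and around Ezh2 were chosen after their values were seen. The libraries compared and all gene lists were chosen with earlier results of these data known. Some results are not reported here. The script was tested on simulated data. Coordinates are mm10, as in the RefSeq tables of GRCm38.p6. P-values measure only the spread between these libraries. The columns of unused values numbered 0.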

Additional observations from a re-analysis of the deposited data

Results flagged for a closer look

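In 6 of the genes named by rule, among the 95 genes that passed this test, the G12D/E2-KO difference at T3 departed from that at the earlier time points by the test of the difference itself, the excess of the G12D/E2-KO T3 library over genotype and time in edgeR (log2). Groups of 3 libraries were too small for a test of single outlying libraries. Gp1bb (2.43), Clu (1.68) and Igfbp7 (2.98) were higher there, and all 3 are highest in WT megakaryocytes. Tspan32 (-1.86) and Cklf (-1.47) were lower. Cdkn2a (-4.52, adjusted p = 0.0403) was lower there, after levels above WT at T1 and T2, and its fold rests on a T3 level of 0.389 CPM. The excess of Cdkn2a was -3.77, adjusted p = 0.126 with G12D/E2-KO T1 left out. The T3 library also differs from WT T3 in sex.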

How the results depend on the processing

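The number of genes that differed over all cells (731) was 379 with only the 2 genotypes and the replicate block, 1315 with DESeq2 and 440 with cells as deposited. Leaving out 1 library gave 91 to 1368 genes, with 112 without WT T1, 91 without WT T3, 104 without G12D/E2-KO T2, 378 without E2-KO T1, 460 without E2-KO T2, 338 without G12D T1 and 1368 without G12D/E2-KO T3. The main comparison had time point as its replicate block, since libraries share a time and not an animal; without the block 608 genes passed. Deviations of same-time WT and G12D/E2-KO libraries from their group means correlated at 0.117, 0.0803 and 0.245 for T1, T2 and T3. With T1 and T2 alone, chosen after seeing the data, 616 passed. The same-way genes (527) numbered 197 at a limit of 1 log2, 580 at T1 and T2 alone (313 shared) and 630 with G12D/E2-KO T1 left out (356 shared), the last chosen after seeing the data.

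The excess at T3 (95 genes) was 152 with a linear trend, 351 with DESeq2, 182 with no filter and 23 with cells as deposited, and 21 (without G12D/E2-KO T1) to 218 (without G12D/E2-KO T2) when 1 library was left out. Of 18 listed or named genes that passed, 18 kept their direction without G12D/E2-KO T1 and 6 passed. The genes changed only at T3 (63) fell to 9 at an early limit of 0.25 log2 and to 19 at 30 CPM or more, and were 60 without sex-linked genes. Class shares that differed (1) were 2 with no replicate block and 0 to 4 with 1 library left out, and 0 at Leiden resolution 1, where no cell was assigned to macrophages, so that this share could not be tested. Calls within classes (1467) were 923 with no replicate block and ranged from 415 with WT T3 left out to 2639 when G12D/E2-KO T3 was. With 1 library left out, the log2 change in share ranged from -0.71 (G12D/E2-KO T1) to 0.028 (G12D/E2-KO T3) for late granulocytes (-0.33 with all), from -0.51 (G12D/E2-KO T3) to 0.79 (G12D/E2-KO T1) for megakaryocytes (0.37) and from -0.17 (G12D/E2-KO T2) to 0.40 (G12D/E2-KO T1) for MEP (0.06, and also negative without WT T2, WT T3 or G12D/E2-KO T3). The excess of Jchain (-1.09) ranged from -2.86 (G12D T2) to 0.61 (E2-KO T3). The cause was not tested for any of these. Of 69 named genes that passed, 12 passed in every alternative, among them Ezh2, Bmi1, Pttg1, Arf5, Dsp, Eml5 and Ccnd1, and 962 of 1376 gene-by-alternative results still passed. With 3 libraries a group and 1 library per time, late differences have no replicate.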

Other observations

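Ribosomal protein genes had mostly positive changes inside several classes of G12D/E2-KO. In late granulocytes, of 83 cytosolic ribosomal protein genes tested, 82 had a positive change and 27 passed, with a median log2 change of 0.50. Of all genes tested there, 51.9% had a positive change and 4.47% passed in either direction. Over all cells the median of 84 was 0.06 and none passed in edgeR (2 higher and 1 lower at an unadjusted p under 0.05, and 1 higher and 1 lower by DESeq2). In the other classes the change was positive for 77 of 82 in MEP (median 0.24), 77 of 83 in early erythroid cells (0.21), 76 of 81 in megakaryocytes (0.14), 72 of 82 in HSC/MPP (0.14), 72 of 81 in basophils and mast cells (0.17) and 57 of 81 in late erythroid cells (0.10), but for 40 of 82 in GMP and early granulocytes and 26 of 82 in monocytes (-0.06). Over all genes tested, the share with a positive change lay between 49.4% and 52.5% in each class. Whether late granulocytes differ from the other classes was not tested. Of the interferon-induced genes tested in late granulocytes, 34 of 34 had a positive change, with a median of 1.63, and Irgm2 passed, where 4.47% of all genes tested did.

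MHC class II genes, with which dendritic and B cells present peptides, differed by a median log2 value of 2.10 at T1, 0.37 at T2 and -0.32 at T3, and none of 9 passed in edgeR or DESeq2 or had an unadjusted p under 0.05. Cells of clusters matched to dendritic cell markers numbered 14, 19 and 2 in WT and 134, 43 and 14 in G12D/E2-KO (0.596%, 0.668% and 0.0837% of cells against 4.402%, 1.14% and 0.535%), and their part in these differences was not tested. Of 20 heat shock and chaperonin genes, Hsp90aa1, Hsph1 and Dnajb1 fell and none rose, and without the G12D/E2-KO T1 library none of the 3 passed (adjusted p = 0.112, 0.0574 and 0.0524). Of 12 enzymes of branched-chain amino acid breakdown, Dbt and Acadsb rose, and Acadsb did not pass without that library (adjusted p = 0.0512). Over 20 alternative fits Dbt passed in 5 and Acadsb in 12. Of 77 nuclear genes of oxidative phosphorylation, 63 had a negative change with a median of -0.16. Ndufs3 fell and Uqcrq rose, where 1.96% of all genes tested fell and 3.73% rose. Neither passed without the G12D/E2-KO T1 library (adjusted p = 0.0583 and 0.0697). In the G12D/E2-KO T3 library 58 of the 77 were lower than in the other 11 libraries, against 13.4% of all genes tested.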
